A study of Homo sapiens with 6 samples.

Results

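Aminoacyl-tRNA synthetases were followed in the human cell line Cal33, grown from an oral squamous carcinoma, with and without forced expression of CES2. Members were taken by gene symbol from a list of 36 synthetase genes, and all 36 were found among the 14136 entries of the deposited expression table. They comprise 20 cytosolic enzymes and 16 mitochondrial enzymes, the latter with symbols ending in 2. All cells had been infected with lentivirus that had been packaged in 293FT, a line of embryonic kidney origin, and selected with 0.5 ug/ml puromycin. They carried either the empty pSin-EF2 vector (Vector, 3 libraries) or the same vector with FLAG-tagged CES2, carboxylesterase 2 (CES2, 3 libraries). The labels do not say whether separate infections or cultures lie behind the 3 libraries of each group, so p-values measure only the spread between these libraries, which may be technical.

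Aminoacyl-tRNA synthetases join amino acids to their matching tRNAs, the step at which the genetic code is read out chemically. Nuclear genes encode both a cytosolic set and a mitochondrial set, and a few genes, among them GARS (glycine) and KARS (lysine), supply both compartments. Several cytosolic enzymes assemble on the scaffold proteins AIMP1, AIMP2 and EEF1E1 into the multisynthetase complex. Uncharged tRNA activates the kinase GCN2 (EIF2AK4), and the transcription factor ATF4 that is then translated is known to raise many cytosolic synthetase genes.

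Promoter sequence was searched for letters tied to ATF4, and is shown here because the expression of these genes is the readout of the comparison. Promoter windows from RefSeq (GRCh38.p14, 250 bases before to 50 after a start site) were matched for 30 of the 36 genes. The 8 letters TTGCATCA, the core bound by ATF4 with a CEBP partner, were searched on both strands. They occurred in 6 of 10 windowed members of a set of synthetases chosen as ATF4-linked from general knowledge, in 0 of 6 other cytosolic synthetases and in 0 of 14 mitochondrial synthetases. Of all 27305 genes with a window, 1.08% held them. A match is a description of letters and not a shown binding site. Knowledge of which genes are ATF4-linked may itself rest on such letters, so the contrast between the sets is not independent evidence. The 30 bases around each match follow, on the strand of the gene, with the match in capitals and its first base counted from the RefSeq start site at position 0.
AARS (alanine), chr16:70289675-70289704, minus strand, match at -187: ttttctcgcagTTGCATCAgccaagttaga
CARS (cysteine), chr11:3057407-3057436, minus strand, match at -2: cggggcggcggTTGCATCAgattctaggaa
IARS (isoleucine), chr9:92293692-92293721, minus strand, match at -13: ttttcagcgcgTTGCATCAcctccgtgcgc
MARS (methionine), chr12:57488053-57488082, plus strand, match at -4: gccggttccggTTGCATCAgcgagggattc
NARS (asparagine), chr18:57621804-57621833, minus strand, match at 14: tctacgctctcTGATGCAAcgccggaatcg
TARS (threonine), chr5:33440956-33440985, plus strand, match at 2: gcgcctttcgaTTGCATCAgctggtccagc
In 5 of these genes the match lay within 14 bases of the RefSeq start site used, and in NARS it read on the opposite strand, as TGATGCAA. The transcripts listed for all 6 genes in the deposited table begin upstream of these RefSeq start sites. The listed TARS transcript begins at another RefSeq start site of the gene, 33440696 against 33440965. Those of MARS and NARS begin at 57487294 against 57488068 and at 57622173 against 57621836. In these 3 genes the match thus lies inside the span of the listed transcript. The looser pattern TGATGNAA, which overlaps the first on its reverse strand, added GARS, where it reads on the opposite strand, and, among the mitochondrial enzymes, YARS2, against 4.46% of all genes. GARS has 2 RefSeq start sites, 30594735 and 30594878, and its match is counted from the latter. That match lies downstream of the former and of the start of the listed transcript, 30594681.
GARS (glycine), chr7:30594834-30594863, plus strand, looser match at -33: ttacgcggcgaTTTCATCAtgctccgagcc

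HARS and HARS2, the cytosolic and mitochondrial histidine enzymes, are neighbours that start in opposite directions on chromosome 5. The transcripts in the deposited table leave 48 bases between their start sites, at 140691377 for HARS and 140691426 for HARS2 (GRCh38), and the RefSeq start sites leave 84. Each gene has a match to CCGGAAG, the letters of an ETS factor such as GABPA, close to its own start. Those letters, on either strand, were found in 12.2% of all genes with a window and in 16 of the 30 synthetases, 7 of them mitochondrial.
HARS, chr5:140691361-140691390, minus strand, match at -9: cgactcgatagCCGGAAGtcatccttgctg
HARS2, chr5:140691436-140691465, plus strand, match at -8: tccggctcctcCCGGAAGtgccgaagctgg

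The values are TPM, a transcript abundance measure that corrects for transcript length and scales every library to the same total, so sequencing depth is unknown. Columns summed to between 999804 and 999893, and 73 to 279 entries were blank in a library, but no synthetase was. Genes at 1 TPM or more in at least 3 libraries were tested (12210, all 36 synthetases among them). CES2 itself was at 45.6, 41.9 and 44.9 TPM in Vector against 2664, 1929 and 2294 TPM in CES2 (limma log2 fold change 5.66, SE 0.18, adjusted p = 7.38e-06; exact two-sided permutation p = 0.1, the smallest that 3 against 3 allows). All 7 squamous epithelial markers were present, with a summed level of 4266 to 5502 TPM in Vector against 4185 to 5627 TPM in CES2. Of 5 leukocyte markers, only CD14 and LYZ had values and both stayed below 1 TPM. COL1A1 was the one fibroblast marker of 6 with values (3.89 to 10.5 TPM over the libraries). Endothelial markers summed to 10.2 to 25.8 TPM in Vector against 11.2 to 20.5 TPM in CES2, mostly CDH5, and their part in the results was not tested. Correlations of log2(TPM + 1) were 0.932 to 0.974 within groups and 0.927 to 0.978 between groups.

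Cytosolic synthetases were abundant transcripts and mitochondrial ones moderate. Summed over the 20 cytosolic genes, the level was 2650, 3092 and 3024 TPM in Vector against 2870, 2439 and 3252 TPM in CES2. Group means were 2922 ± 238 TPM and 2854 ± 407 TPM (SD, n = 3 each). The groups overlapped, with the lowest and the highest library both in CES2. Summed over the 16 mitochondrial genes, the level was 632, 686 and 703 TPM in Vector against 665, 598 and 678 TPM in CES2, with means of 673 ± 37.1 TPM and 647 ± 42.8 TPM (SD, n = 3 each). In bulk RNA, less RNA per cell and fewer cells of a kind cannot be told apart.

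**Figure D1:**
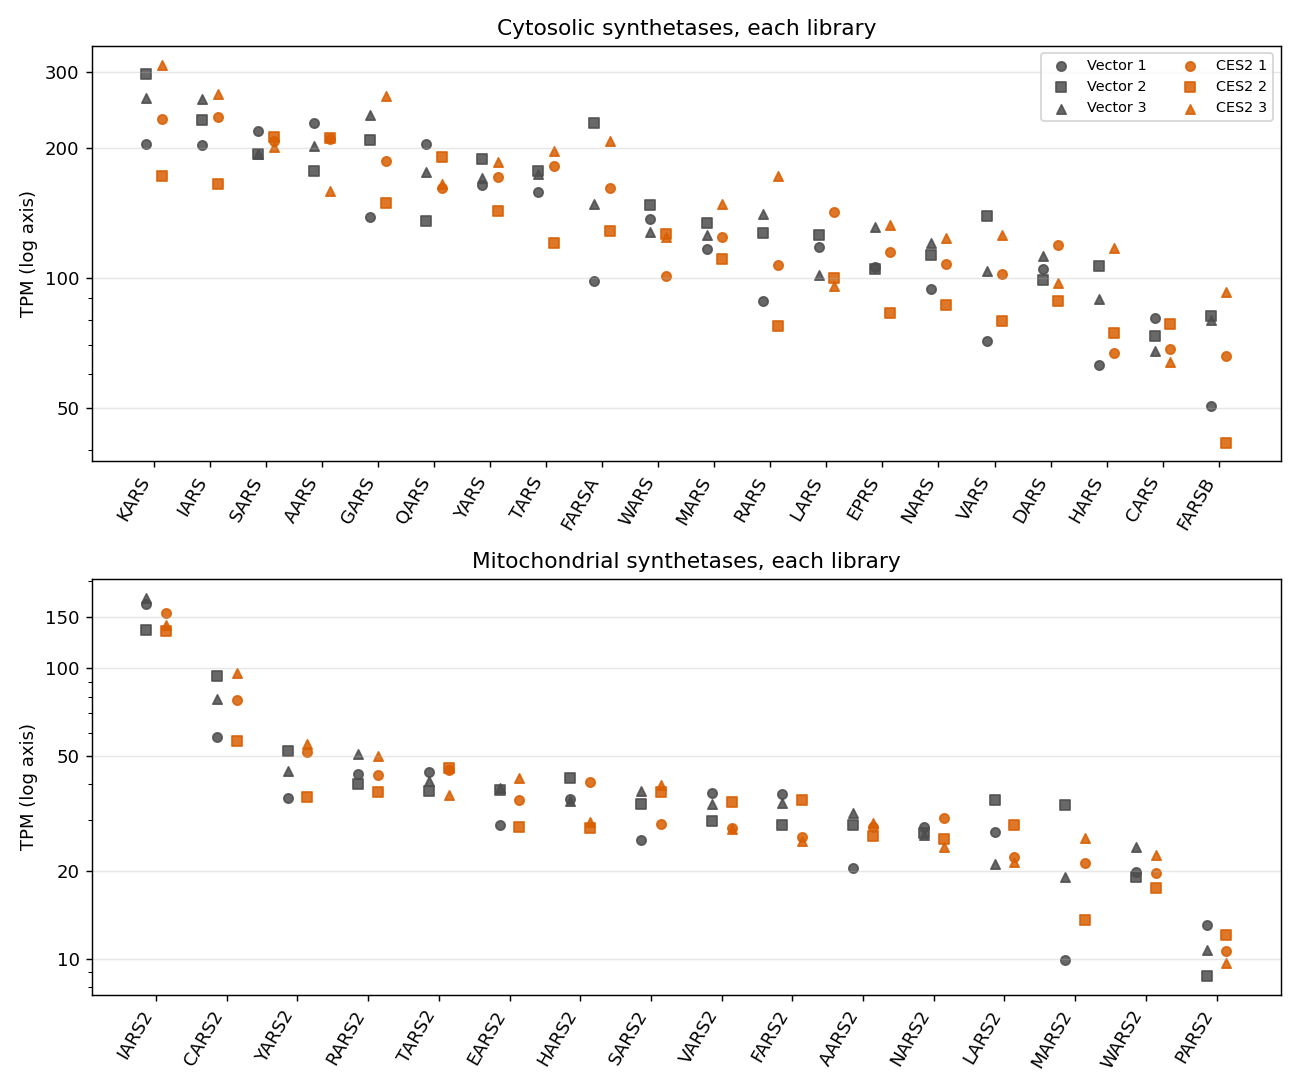
TPM (log axis) of each synthetase in each library, ordered by mean level, with cytosolic genes above and mitochondrial genes below; grey symbols are Vector and orange symbols CES2, and each symbol shape is a replicate number. KARS is highest and FARSB lowest among the cytosolic genes, IARS2 stands above the other mitochondrial genes, and the groups overlap for every gene but WARS.

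Within the cytosolic set the mean over 6 libraries ran from 246 TPM for KARS to 68.8 TPM for FARSB, with a median of 127 TPM. KARS, the lysine enzyme of cytosol and mitochondria, was at 205, 297 and 260.4 TPM in Vector against 233, 172 and 311 TPM in CES2. IARS, the isoleucine enzyme of the multisynthetase complex, was at 203, 232 and 259.6 TPM in Vector against 236, 165 and 267 TPM in CES2. For both, CES2 held the lowest and the highest library, so the order between them is within their spread. SARS, the serine enzyme, was at 219, 193 and 193 TPM in Vector against 208, 212 and 201 TPM in CES2. It was the steadiest member: its residual SD on the log2(TPM + 1) scale was 0.078, at percentile 1.09 of all tested genes. AARS, GARS, QARS and YARS followed, with means of 198, 197, 172 and 170.4 TPM. The transcript listed for QARS has 859 bases and 8 exons, the shortest among the members. Whether its TPM was computed from that transcript alone is not known.

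The lowest cytosolic levels were those of FARSB, CARS and HARS. FARSA and FARSB encode the catalytic and the partner subunit of the tetrameric phenylalanine enzyme. FARSA was at 98.6, 229 and 149 TPM in Vector against 162, 129 and 207 TPM in CES2. FARSB was at 50.8, 81.6 and 80.1 TPM in Vector against 66.0, 41.7 and 92.8 TPM in CES2. FARSA exceeded FARSB in every library, by 1.86 to 3.08 times, so the transcripts of these equimolar subunits were unequal. The ratio was 2.20 ± 0.52 in Vector against 2.59 ± 0.44 in CES2 (SD, n = 3 each). CARS, the cysteine enzyme, was at 80.8, 73.4 and 68.0 TPM in Vector against 68.5, 78.4 and 63.9 TPM in CES2. EPRS, which carries both the glutamate and the proline activity in a single chain, had 105.97, 105.3 and 131 TPM in Vector against 115, 83.3 and 133 TPM in CES2.

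Among mitochondrial synthetases IARS2 stood apart. It was at 167, 135 and 175 TPM in Vector against 155, 135 and 141 TPM in CES2, while CARS2, the next, had 58.2, 94.3 and 78.2 TPM in Vector against 78.2, 56.2 and 96.7 TPM in CES2. The lowest IARS2 library was thus above the highest CARS2 library. YARS2, the tyrosine enzyme, came next at 35.9, 51.8 and 44.4 TPM in Vector against 51.4, 36.002 and 55.0 TPM in CES2, close to RARS2 and TARS2 with means of 44.1 and 41.5 TPM. The lowest were WARS2 (tryptophan), MARS2 (methionine) and PARS2 (proline). WARS2 was at 19.9, 19.2 and 24.3 TPM in Vector against 19.7, 17.5 and 22.8 TPM in CES2. PARS2 was at 13.1, 8.75 and 10.7 TPM in Vector against 10.7, 12.1 and 9.67 TPM in CES2, and no other member was lower in mean. MARS2, a gene of 1 exon, spread the most of all members, at 9.91, 33.8 and 19.2 TPM in Vector against 21.3, 13.6 and 25.98 TPM in CES2, a highest library 3.41 times its lowest.

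For 13 amino acids a single cytosolic gene could be set against a single mitochondrial gene of the same letter. The cytosolic transcript was higher in every library for 12 of the 13 pairs. The mean ratio over 6 libraries ran from 0.995 for CARS over CARS2 to 7.39 for AARS over AARS2, with a median of 3.99. CARS over CARS2 was the pair that crossed 1, at 1.39, 0.778 and 0.869 in Vector against 0.876, 1.40 and 0.661 in CES2. IARS over IARS2 was 1.22, 1.72 and 1.49 in Vector against 1.52, 1.23 and 1.89 in CES2, the next lowest mean ratio after the cysteine pair. HARS over HARS2, the pair with adjoining start sites, was 1.77, 2.55 and 2.56 in Vector against 1.66, 2.64 and 3.97 in CES2. In none of the 13 pairs were the groups apart. The ratio of the 2 sums was 4.33 ± 0.16 in Vector against 4.40 ± 0.37 in CES2 (SD, n = 3 each).

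**Figure D2:**
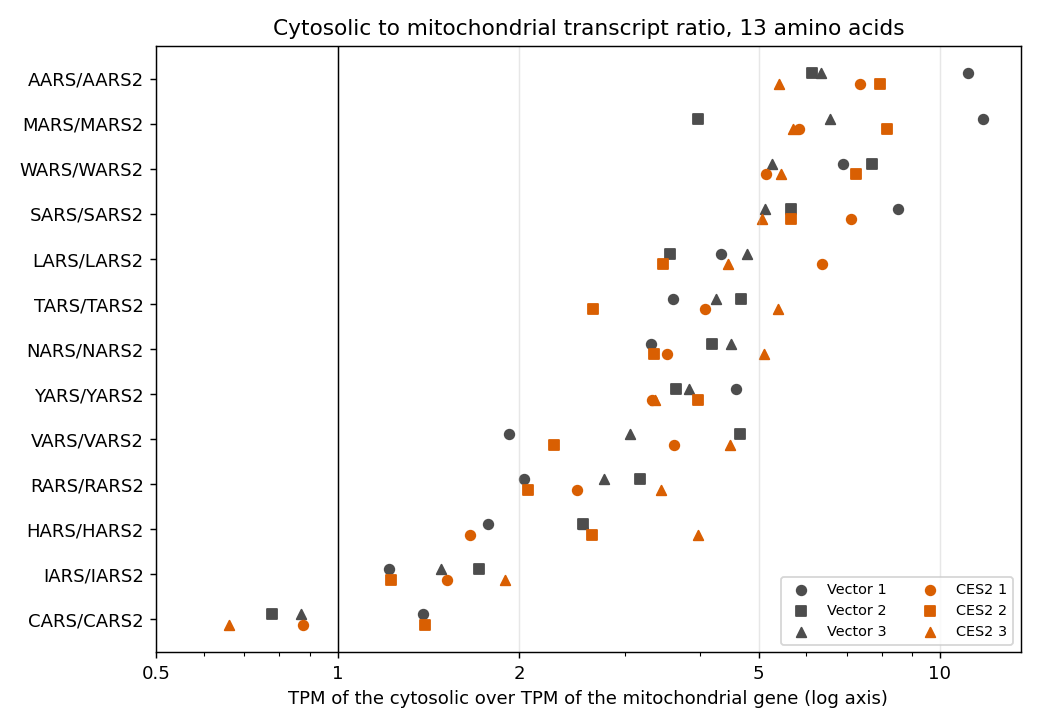
TPM of the cytosolic gene divided by TPM of the mitochondrial gene (log axis) for 13 same-letter pairs, ordered by the mean ratio; grey symbols are Vector and orange symbols CES2, with 1 symbol per library. Points for CARS/CARS2 lie on both sides of 1, all other pairs lie above 1, and the groups overlap in every pair.

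The comparison of CES2 with Vector asks whether the enzyme's overexpression altered synthetase transcripts. No synthetase passed limma's test at a Benjamini-Hochberg adjusted p under 0.05 over all 12210 genes, against 0.00819% of all genes (CES2 alone). At an unadjusted p under 0.05 there were 0 of 36, against 1.09% of all genes, and the smallest unadjusted p was 0.221 (adjusted p = 0.9998), for WARS. With so small a share over all genes, 0 of 36 does not set the synthetases apart. Log2 fold changes, on the log2(TPM + 1) scale, ran from -0.23 for WARS to 0.13 for SARS2. The median was -0.055 for the cytosolic set and -0.022 for the mitochondrial set, beside -0.057 for all tested genes.

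The libraries left limited room for a larger change in most members. The 95% interval of the fold change lay within 2-fold in either direction for all 20 cytosolic and 15 of 16 mitochondrial members, against 80.5% of all tested genes. It lay within 1.5-fold for 12 cytosolic and 8 mitochondrial members, against 23.1% of all tested genes. Precision depends on level: among all 2256 genes in the level range of the cytosolic set, 90.5% were within 2-fold and 43.4% within 1.5-fold, and among 7962 genes in that of the mitochondrial set 86.7% and 27.2%. MARS2 was the exception at 2-fold, with an interval of -0.91 to 1.04 on the log2 scale. The narrowest interval was that of SARS, -0.32 to 0.40. Each interval stands for 1 gene and is not adjusted for the number of members. With 1 library left out in turn, 33 to 34 members had an interval within 2-fold, and 3 (without CES2 1) to 10 (without Vector 3) had one within 1.5-fold. FARSA, FARSB or both joined MARS2 outside 2-fold in each of these 6 fits.

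**Figure D3:**
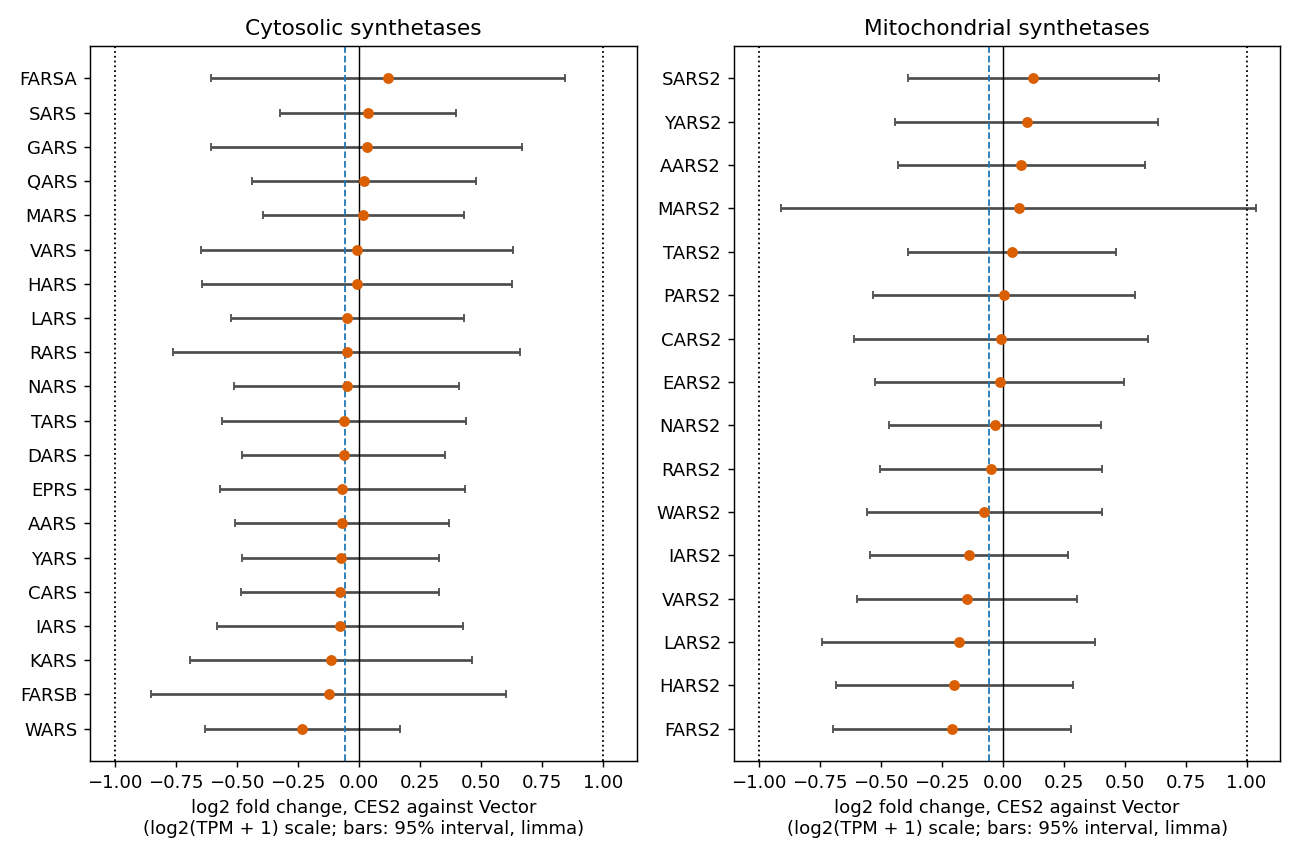
Log2 fold change of CES2 against Vector for each synthetase with its 95% interval from limma, n = 3 libraries a group; dotted lines mark a 2-fold change, the solid line no change and the dashed line the median of all tested genes (-0.057). Every interval spans 0, and only that of MARS2 reaches past a dotted line.

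WARS, the cytosolic tryptophan enzyme and a gene known to be induced by interferon gamma, was the only member whose groups did not overlap. It was at 137, 148 and 128 TPM in Vector against 101, 127 and 124 TPM in CES2. Its lowest Vector library was 127.7 TPM and its highest CES2 library 126.6 TPM, so the groups nearly met. The means were 138 ± 10.1 TPM and 117 ± 13.97 TPM (SD, n = 3 each), with a log2 fold change of -0.23 and a 95% interval of -0.63 to 0.17. All CES2 libraries lay below all Vector libraries for 1 of 36 synthetases against 2.63% of all genes, and above them for 0 of 36 against 1.07%. Without CES2 1, its lowest library, the log2 fold change of WARS was -0.13 (unadjusted p = 0.561), and with library weights it was -0.36 (unadjusted p = 0.0463, adjusted p = 0.945). Of 6 tested interferon gamma genes, GBP1, a guanylate-binding protein, was also below Vector in all CES2 libraries (29.3, 26.6 and 27.6 TPM against 20.4, 25.9 and 25.7 TPM), and the groups overlapped for the other 5, among them IRF1 (log2 fold change 0.0044).

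Other cytosolic members with the smallest p-values were KARS, CARS, YARS, FARSB and FARSA. YARS, the tyrosine enzyme, was at 164, 189 and 170.05 TPM in Vector against 171, 143 and 185 TPM in CES2 (log2 fold change -0.074, SE 0.18, unadjusted p = 0.683). The log2 fold changes of KARS and CARS were -0.11 and -0.076. Those of the phenylalanine subunits were 0.12 for FARSA and -0.12 for FARSB, each with an SE of 0.32. GARS, the other gene that serves both compartments, was at 138, 209 and 238 TPM in Vector against 187, 149 and 264 TPM in CES2 (log2 fold change 0.032, 95% interval -0.60 to 0.67). For these genes the spread within a group exceeded the difference between groups.

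FARS2, HARS2, IARS2 and VARS2 had the smallest p-values among mitochondrial members, all with lower means in CES2 and overlapping groups. FARS2, the single-chain phenylalanine enzyme, was at 37.1, 28.98 and 34.3 TPM in Vector against 26.3, 35.2 and 25.5 TPM in CES2 (log2 fold change -0.21, SE 0.21, unadjusted p = 0.356). HARS2 was at 35.5, 41.8 and 34.9 TPM in Vector against 40.5, 28.2 and 29.5 TPM in CES2 (log2 fold change -0.20, unadjusted p = 0.376). VARS2, the valine enzyme, was at 37.3, 29.9 and 34.0 TPM in Vector against 28.3, 34.8 and 28.1 TPM in CES2 (log2 fold change -0.15). IARS2 had a log2 fold change of -0.14. HARS, by contrast, had 62.9, 106.7 and 89.3 TPM in Vector against 67.3, 74.7 and 117 TPM in CES2 (log2 fold change -0.0078), and its highest library, CES2 3, was among the lower libraries of HARS2. The highest fold change, that of SARS2, is uncertain, since 71.9% of the 50-base words of its listed transcript also occur in transcripts of AC011455.2, another gene model in GENCODE release 29. For all other members at most 4.19% of words were shared, and HARS and HARS2 shared none with each other.

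The sign of small changes moved with single libraries and with the scaling. Fold changes were above 0 for 5 of 20 cytosolic and 6 of 16 mitochondrial members, against 36.3% of all tested genes. After median rescaling these counts were 12 and 10, with 50.9% of all genes above 0, and after quantile normalization 7 and 9, with 47.2%. Median rescaling moves all genes together (the median of all genes went from -0.057 to 0.0030), so changes near 0 turn by construction. Without CES2 2, 16 of 20 cytosolic members were above 0 (median 0.093), and without CES2 3, 4 were (median -0.17). The count was 3 without Vector 1, 9 without Vector 2, 11 without Vector 3 and 6 without CES2 1. For the mitochondrial set it ran from 2 of 16 without Vector 1 to 10 without Vector 3. No direction is therefore given for the family.

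Grouped by structure and assembly, the members showed the same absence of calls. The 8 enzymes of the multisynthetase complex had a median log2 fold change of -0.056 and the 12 free cytosolic enzymes one of -0.055, with 0 past the adjusted threshold in each. Class I enzymes, which share a Rossmann-type catalytic fold, had 4 of 18 above 0 and a median of -0.048, and class II enzymes, built on an antiparallel sheet, 7 of 17 and -0.031. EPRS, which joins a domain of each class, was counted in neither. None of the 3 scaffold genes passed the threshold. AIMP2 was at 58.8, 126 and 142 TPM in Vector against 100.7, 62.8 and 172 TPM in CES2 (log2 fold change 0.016, 95% interval -0.96 to 0.99). AIMP1 and EEF1E1 had log2 fold changes of -0.047 and 0.040. The 6 synthetases with TTGCATCA in the promoter window had log2 fold changes between -0.077 and 0.018. For all 6 the interval lay within 1.5-fold, against 60% of the cytosolic set and 43.4% of genes in its level range. This count depended on the libraries: without CES2 1, only 3 of all 36 members had such an interval.

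Some members also shared an order of libraries that cut across the groups. For 16 of 36 synthetases the 2 lowest libraries were Vector 1 and CES2 2, which is 44.4% against 20.5% of all tested genes. This held for 11 of 20 cytosolic members, namely FARSA, FARSB, GARS, IARS, KARS, MARS, NARS, RARS, TARS, VARS and YARS. It held for 5 of 16 mitochondrial members, AARS2, CARS2, EARS2, MARS2 and YARS2. RARS, the arginine enzyme of the multisynthetase complex, was an example, at 88.4, 127 and 141 TPM in Vector against 107, 77.4 and 172 TPM in CES2. The opposite order, with Vector 1 and CES2 2 highest, was found for 7 of 36 (19.4%, against 17.1% of all genes): AARS, CARS, QARS, SARS, FARS2, PARS2 and VARS2. AARS showed it at 228, 177 and 202 TPM in Vector against 209.9, 210.3 and 159 TPM in CES2. This order of libraries was seen before it was counted, and the counts are a description. No share was taken for genes of like level. Genes within a library are not independent. With both libraries left out, 0 synthetases passed, and the cytosolic median was -0.0074.

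**Figure D4:**
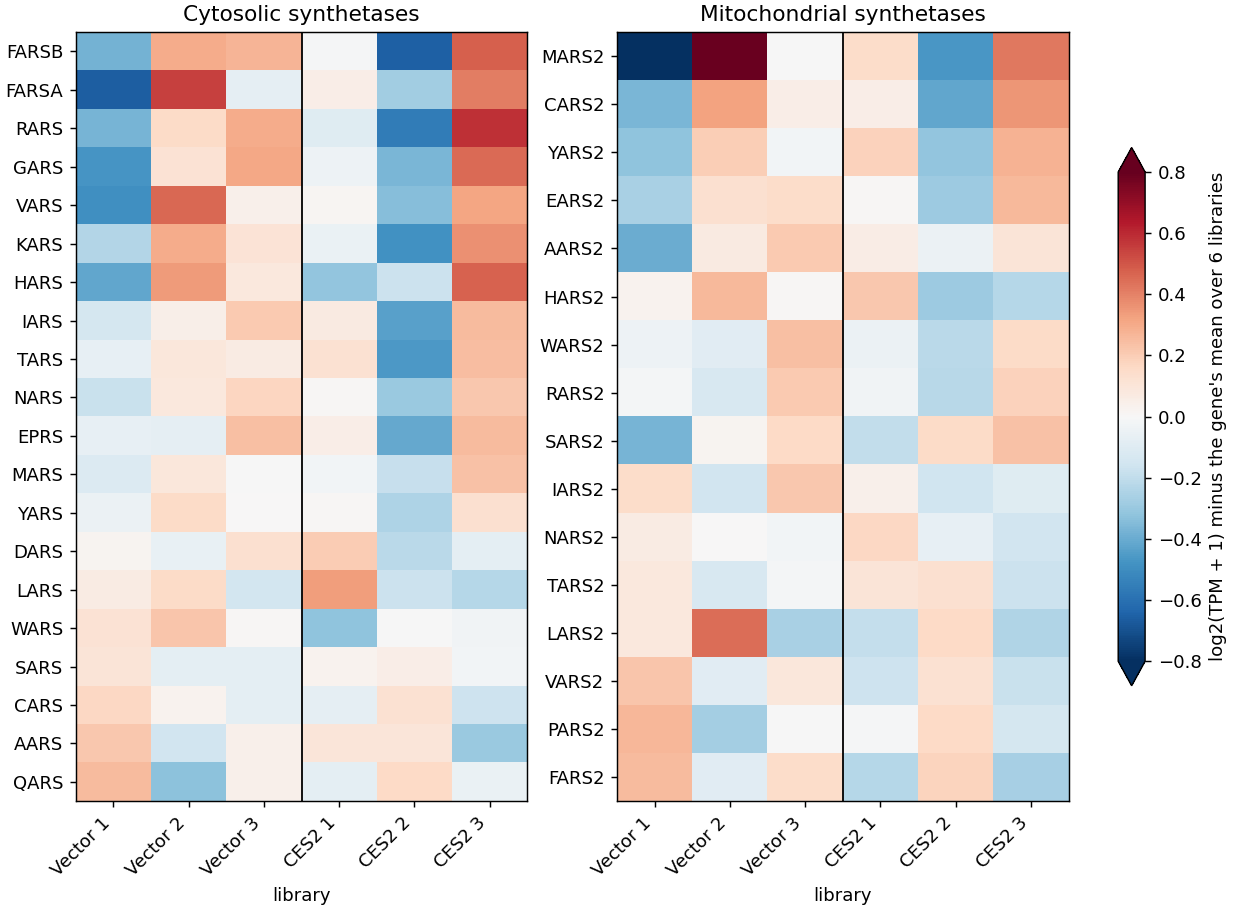
Each synthetase's log2(TPM + 1) in each library minus its mean over the 6 libraries (colour, red above and blue below), with rows ordered by the sum of Vector 1 and CES2 2 and a line between the groups. Blue cells fall together in Vector 1 and CES2 2 in the upper rows, and red cells in Vector 2 and CES2 3, so the columns differ within groups as much as between them.

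Per library, the median deviation of the cytosolic set from each gene's own mean lay at -0.090, 0.10 and 0.055 in Vector libraries against 0.010, -0.26 and 0.24 in CES2 libraries, in log2 units. That of the mitochondrial set ran over a narrower range, at 0.0071, 0.011 and 0.073 in Vector against 0.026, -0.11 and 0.0053 in CES2. Mitochondrial ribosome genes, a list of 12, had -0.36, 0.13 and -0.036 in Vector against 0.072, -0.23 and 0.27 in CES2, again lowest in Vector 1 and CES2 2. The 20 genes of tRNA maturation and export were also lowest in these libraries, at -0.34 and -0.32. So were the 2256 genes in the level range of the cytosolic set, at -0.073 and -0.071, beside 0.039 and -0.024 for all tested genes. The 25 tested members of a list of ATF4 and its other targets ran differently, at 0.19, -0.10 and -0.020 in Vector against 0.11, 0.0017 and -0.16 in CES2. The 12 ATF4-linked synthetases had -0.055, 0.086 and 0.025 in Vector against 0.018, -0.22 and 0.17 in CES2. By these medians CES2 3 was the lowest library for the other ATF4 targets and the highest for the ATF4-linked synthetases. It was also the highest for the whole cytosolic set and for the mitochondrial ribosome genes, but not for the mitochondrial synthetases. The high place of CES2 3 is thus not particular to the ATF4-linked members.

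The wider charging pathway held 0 genes past the threshold in either direction in each of the lists below. ATF4 was at 585, 485 and 411 TPM in Vector against 444, 462 and 440.3 TPM in CES2 (log2 fold change -0.12, 95% interval -0.54 to 0.30). Of its list 15 of 25 were above 0 (median 0.075), with the smallest p-values for the transcription factors CEBPB (0.67) and ATF3 (0.51), the stress protein NUPR1 (0.70) and the serine enzyme PSPH (-0.23), given as log2 fold changes. With 1 library left out, the count ran from 12 of 25 (without Vector 2, CES2 1 or CES2 2) to 19 (without Vector 1). The median of this list then ran from -0.059 without CES2 1 to 0.19 without CES2 3. All 9 genes of the eIF2 kinase and phosphatase list were below 0 (median -0.13, against -0.057 for all genes), as were 7780 of all 12210 tested genes. After median rescaling and after quantile normalization 7 of the 9 were below 0, and without Vector 3 only 5 were (median -0.0074). Their log2 fold changes were -0.16 for the sensor of uncharged tRNA EIF2AK4, -0.039 for its activator GCN1, -0.21 for its inhibitor IMPACT, -0.13 for EIF2AK1, -0.26 for EIF2AK2, -0.067 for EIF2AK3, -0.11 for the eIF2 subunit EIF2S1, -0.061 for PPP1R15A and -0.31 for PPP1R15B. PPP1R15B, a phosphatase subunit for eIF2, was below Vector in all CES2 libraries (37.5, 42.7 and 42.4 TPM in Vector against 34.2, 27.8 and 37.0 TPM in CES2, unadjusted p = 0.152). So was PSPH, at 92.7, 82.5 and 97.1 TPM in Vector against 77.3, 73.3 and 80.8 TPM in CES2. This order was found for 2.63% of all genes.

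Genes that act on mitochondrial tRNA charging included the amidotransferase subunits GATB, GATC and QRSL1, through which mitochondria make glutaminyl-tRNA without a glutamine enzyme of their own. Their log2 fold changes were -0.10, -0.0065 and -0.13, and 3 of 10 genes in this list were above 0. The highest log2 fold change in the list was 0.53, and the smallest unadjusted p from limma was 0.151. For 1 of the 10 all CES2 libraries lay above all Vector libraries, against 1.07% of all genes. Of 7 cytosolic elongation factors 4 were above 0, with EEF1A2 at 0.43 and EEF1A1 at -0.21. Of 20 genes of tRNA maturation and export 10 were above 0 (median -0.015). Among the smallest p-values were those of RPP14, an RNase P subunit (-0.30), the exporter XPOT (-0.14) and ELAC2, which trims tRNA 3′ ends (0.19). Of 12 amino acid transporters 5 were above 0 (median -0.11), and SLC3A2, the heavy chain of several exchangers, was at 0.21.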

How the data were processed

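One table of 6 libraries was used, with 14136 gene entries. Its header names no unit, and TPM was inferred from column sums of 999804 to 999893. Of tools, HISAT2 2.1.0, StringTie 1.3.3 and edgeR 3.0.8 appear in the submitters' processing notes, with the builds hg38 and GRCh38. What each tool did, the annotation, the filters and any use of strand in quantification were not given in the sources used here. The deposited TPM keep no depth, so no counting interval is possible. Ribosomal RNA was removed and libraries were strand-specific, per the labels' protocols.

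Groups came from sample titles and blanks were read as 0. Genes at 1 TPM or more in at least 3 libraries were transformed as log2(TPM + 1) and fitted by limma 3.58.1 (R 4.3.3) with a trend and group as the only term, with Benjamini-Hochberg adjustment over all genes. The test was tried on simulated data. Python 3.11.15, pandas 2.3.3 and matplotlib 3.10.9 were used for tables and figures. Promoter windows were those of RefSeq on GRCh38.p14, matched by gene identifier and symbol. Transcript words of 50 bases came from GENCODE release 29.

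The members, the gene lists and the naming rule were chosen with earlier results of these data known. Values per library are given for members with non-overlapping groups, the smallest p-values (6 cytosolic and 4 mitochondrial), the 3 highest and 3 lowest levels of each compartment, and GARS, KARS, WARS, FARSA, FARSB, HARS, HARS2 and EPRS. RARS, AARS, ATF4, GBP1, IRF1, EEF1A1 and the amidotransferase subunits were named after their values were seen or for their role. Alternatives covered pseudocounts, filters, scaling, trend, library weights, the replicate block and each library left out.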

Additional observations from a re-analysis of the deposited data

How the results depend on the processing

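No synthetase passed the threshold under any of the 16 alternatives run, and the interval lay within 2-fold for 33 to 36 members. CES2 passed in all of them. The number of genes past the threshold over all genes was 1, but 4 with library weights, 1 to 2 with a library left out (2 without CES2 3), and 2 without both Vector 1 and CES2 2, an alternative chosen after seeing the data. The mitochondrial median of -0.022 was 0.040 after median rescaling and ran from -0.12 to 0.023 with a library left out, and the cytosolic median ran from -0.17 to 0.093. Signs turned for some uncalled members. HARS and CARS2 were at 0.055 and 0.057 after median rescaling and at 0.029 and 0.034 after quantile normalization. With library weights GARS was at -0.088, CARS2 at 0.028, HARS2 at 0.070 and PARS2 at -0.011. Without both Vector 1 and CES2 2, EPRS was at 0.070, FARSA at -0.0083, GARS at -0.0064, IARS at 0.031, CARS2 at 0.017 and MARS2 at -0.11. Median rescaling moved all genes together, as described above, and the cause of the other shifts was not tested.

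With a library left out, log2 fold changes ranged over -0.21 to 0.12 for EPRS, -0.18 to 0.42 for FARSA, -0.39 to 0.17 for FARSB, -0.20 to 0.22 for GARS, -0.25 to 0.16 for HARS, -0.22 to 0.12 for IARS, -0.33 to 0.10 for KARS, -0.16 to 0.031 for YARS, -0.19 to 0.20 for CARS2, -0.36 to 0.48 for MARS2, -0.13 to 0.14 for PARS2, -0.17 to 0.026 for WARS2 and -0.038 to 0.28 for YARS2.

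With the replicate number as a block, 1 gene passed, CES2 (adjusted p = 8.69e-04), and 0 synthetases did. The block changed no call. Deviations of same-numbered libraries correlated at 0.15, -0.52 and 0.37. Deviations within a group sum to 0 by construction, so these values cannot show whether the numbers pair the samples. Vector 1 correlated best with CES2 2, at 0.68. Sequencing depth is unknown, so its limit on these values cannot be given.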
